A study of Mus musculus with 15 samples.

Results

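The insulin-like growth factor (IGF) family was followed in mouse lung through bleomycin injury. The members were the 10 genes for the ligands (Igf1, Igf2), their receptors (Igf1r, Igf2r) and the binding proteins Igfbp2 to Igfbp7, out of 33340 genes in the count table. They were taken by gene symbol as a family, and the family was chosen because the transcript of Igfbp3 was among those that fell furthest at day 7. Values of day 7 against day 0 are therefore given as a description, with no p. Polyadenylated RNA had been sequenced from whole lungs of young adult male C57BL/6 mice. The study's methods give 10 weeks, or up to 2 weeks older, at bleomycin dosing, and 10 to 14 weeks for its mice in general. The later groups had been given a single agent, bleomycin (5 U/kg, intratracheal), which breaks DNA and leads to scarring. There were 4 libraries from day 0, 4 from day 7, 4 from day 14 and 3 from day 21, by the sample titles. The series' description speaks of 3 replicates at each time point, and the titles were followed. Apart from replicate 4, the day 0 mice were labelled as having no treatment. No vehicle instillation was thus sampled, and injury cannot be told apart from the procedure. For day 0 replicate 4 the title (control) and the treatment label (bleomycin) disagree, and the title was followed. The study's text calls the replicates biological, while the labels do not tie any library to an animal, so p-values measure the spread between these libraries, whatever its source.

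IGF1 and IGF2 are small secreted hormones that signal growth and survival through IGF1R, a receptor tyrosine kinase at the cell surface. IGF2R, also known as the mannose 6-phosphate receptor, takes up IGF2 for breakdown and sorts lysosomal enzymes, and it carries no kinase. Most IGF outside cells is held by the IGFBP proteins, which block the ligand, prolong its life or, once cut by proteases such as PAPP-A, release it. In the lung, IGF1 is made by mesenchymal cells and macrophages and is long known in repair and fibrosis.

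Totals ranged from 15652008 to 18020661 counts per library, and each member had between 72 and 19069 counts in every library, so counting error was small against the spread between libraries. Whole-lung markers were present throughout. Scgb1a1 of club cells was at 1308 to 31291 CPM (counts scaled to 1000000 per library), Sftpc of alveolar type 2 cells at 2213 to 25095 CPM and Ager of alveolar type 1 cells at 1042 to 3533 CPM. The share of mitochondrial counts was 2.28%, 2.31%, 4.22% and 4.04% in the day 0 libraries, 2.03% to 2.15% in all 4 of day 7, 3.74% to 4.14% in 3 of the 4 of day 14 (replicate 1 was within the day 7 range) and 2.66% to 4.01% at day 21, so that it moved with day in the step from day 7 to day 14. With this share as a covariate, Igf1 and Igfbp6, the members called in that step, kept their calls. Within that step only day 14 replicate 1 parted share from day, so the covariate cannot fully separate them. Day 0 replicates 3 and 4, day 7 replicate 4 and day 21 replicate 1 held more than 50 CPM of the heart muscle gene Myh6. CPM use library sizes after TMM scaling. Genes called changed had an adjusted p below 0.05 together with a difference of more than 1.5-fold in the quasi-likelihood test of edgeR fitted to all libraries and all 17457 genes that passed the filter on low counts. All 10 members passed that filter.

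The promoter windows of 5 members are shown before their values. Igf1 had the largest rise of the family, Igfbp6 had the largest fall at days 14 and 21, Igfbp4 and Igfbp7 had the lowest adjusted p among the binding proteins that rose, and Igfbp3 was the gene by which the family was chosen. Each window is the 250 bases before the RefSeq start of transcription in GRCm38.p6, read 5′ to 3′ on the strand of the gene. Capitals mark matches on either strand to 6 short motifs. Core promoter elements among them were the TATAAA box, the GC-rich site written GGGCGG and the CCAAT box. The others were CAGACA, which occurs in SMAD sites, the AP-1 site TGANTCA and the E-box CACGTG. The matches shown do not overlap each other.
Igf1, chr10:87860861-87861110, plus strand: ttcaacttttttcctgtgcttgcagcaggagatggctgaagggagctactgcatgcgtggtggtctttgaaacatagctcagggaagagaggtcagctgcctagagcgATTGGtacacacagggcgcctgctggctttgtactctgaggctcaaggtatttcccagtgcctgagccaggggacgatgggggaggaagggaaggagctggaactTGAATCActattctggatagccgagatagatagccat
Igfbp4, chr11:99040994-99041243, plus strand: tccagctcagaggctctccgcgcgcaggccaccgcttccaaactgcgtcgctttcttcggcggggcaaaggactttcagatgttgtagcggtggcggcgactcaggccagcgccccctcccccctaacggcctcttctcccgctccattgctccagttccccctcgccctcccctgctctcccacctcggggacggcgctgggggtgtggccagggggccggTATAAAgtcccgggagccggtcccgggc
Igfbp7, chr5:77408046-77408295, minus strand: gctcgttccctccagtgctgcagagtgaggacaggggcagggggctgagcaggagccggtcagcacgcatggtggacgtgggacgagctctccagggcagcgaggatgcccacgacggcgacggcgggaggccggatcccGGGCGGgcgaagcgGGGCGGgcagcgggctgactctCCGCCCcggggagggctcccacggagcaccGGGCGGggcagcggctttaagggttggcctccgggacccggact
Igfbp6, chr15:102143936-102144185, plus strand: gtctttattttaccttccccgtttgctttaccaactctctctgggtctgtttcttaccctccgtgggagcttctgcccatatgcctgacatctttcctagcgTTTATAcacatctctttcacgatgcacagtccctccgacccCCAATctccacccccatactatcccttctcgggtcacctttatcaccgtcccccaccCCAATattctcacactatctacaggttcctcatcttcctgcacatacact
Igfbp3, chr11:7213924-7214173, minus strand: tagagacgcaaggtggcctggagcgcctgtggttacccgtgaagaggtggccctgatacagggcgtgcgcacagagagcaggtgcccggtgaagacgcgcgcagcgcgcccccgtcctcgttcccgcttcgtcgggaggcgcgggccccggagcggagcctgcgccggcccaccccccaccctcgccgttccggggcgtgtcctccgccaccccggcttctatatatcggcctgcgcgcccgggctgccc

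The windows of the 3 genes that rose had no motif in common. The window of Igf1 held CCAAT on the minus strand, beginning 142 bases before the start, and an AP-1 match at 37 bases. Its RefSeq start lies inside the annotated gene (GRCm38 chr10:87858265-87937042), downstream of the first annotated exon base. The window of Igfbp4 held a TATAAA at 28 bases, and that of Igfbp7 held 4 GC boxes, at 110, 96 and 44 bases and, on the minus strand, at 74 bases. The window of Igfbp6 held CCAAT at 107 and at 50 bases and TATAAA on the minus strand at 148 bases. That of Igfbp3 had none of the 6 motifs, which says only that these letters are not in this window. Over the 32851 RefSeq windows of the same length, 12.4% held TATAAA, 32.7% GGGCGG, 33.8% CCAAT, 17.1% CAGACA, 6.75% TGANTCA and 6.02% CACGTG. A match is a description of letters, not evidence of a bound factor.

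To see which members differed from the untreated lung at the stage of scarring, day 14 was compared with day 0. Of the 9 members other than Igfbp3, which was chosen on the day 0 libraries and is described apart, 5 rose (Igf1, Igf2r, Igfbp2, Igfbp4 and Igfbp7) and 2 fell (Igf2 and Igfbp6). Among all genes tested, 12.0% rose and 11.2% fell. The median log2 fold change of the 9 was 0.80, against 0.02 over all genes. The split was 5 up and 1 down without day 0 replicate 1 or 2 or day 14 replicate 2 or 3, where Igf2 lost its call. It was 5 up and 3 down without day 0 replicate 3 or day 14 replicate 1, where Igf1r gained one. Without the 4 libraries of high Myh6 it was 3 up and 3 down, as Igf2r and Igfbp2 lost their calls and Igf1r gained one. At day 21, 6 of the 9 were higher than at day 0 (the same 5 and Igfbp5) and 1 was lower (Igfbp6), where 12.4% of all genes rose and 10.1% fell, and their median was 0.77. With single libraries left out, 4 or 5 were higher and 1 or 2 lower, and without the libraries of high Myh6 4 were higher and 2 lower. These comparisons share the day 0 libraries with the one that chose the family. In whole lung, fewer cells of a type and less RNA per cell cannot be told apart.

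Igf1, the ligand of IGF1R and the main IGF of adult tissue, changed most. Its level was 14.0, 20.1, 11.4 and 17.1 CPM in the 4 day 0 libraries. It was 104, 73.2, 81.9 and 73.0 CPM at day 7, and 157, 125, 154 and 129.9 CPM at day 14. The 3 day 21 libraries held 83.5, 118 and 149 CPM. Every injured library lay above every day 0 library, and the lowest day 14 library lay above the highest of day 7. Against day 0 the transcript was 9.03-fold higher at day 14 (log2 fold change 3.18 ± 0.19 SE, edgeR adjusted p = 2.61e-07). At day 21 it was 7.45-fold higher (2.90 ± 0.21 SE, edgeR adjusted p = 9.43e-07). The day 7 value was 5.30-fold. From day 7 to day 14 Igf1 rose further, by 0.77 ± 0.19 SE on the log2 scale (edgeR adjusted p = 0.0259). That step lost its call without day 14 replicate 3 or without day 7 replicate 2, 3 or 4, with edgeR adjusted p from 0.0621 to 0.0785, while the rise against day 0 kept its call in each alternative run.

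Igf2, the fetal-type ligand, stood near Igf1 at day 0 and moved the other way at day 14. It was at 13.3, 12.6, 8.13 and 10.7 CPM at day 0, and at 7.92, 4.59, 5.26 and 8.81 CPM at day 14. The ranges overlapped, with 3 of 4 day 14 libraries below every day 0 library. The day 14 fall was 0.595-fold (log2 fold change -0.75 ± 0.24 SE, edgeR adjusted p = 0.0259). It lost its call without day 0 replicate 1 or 2 or day 14 replicate 2 or 3 (edgeR adjusted p from 0.0572 to 0.0720), and within the libraries over 3.5% mitochondrial counts (-0.61, edgeR adjusted p = 0.219). Day 7 libraries held 6.06 to 9.88 CPM. At day 21 the 3 libraries held 12.1, 7.86 and 10.9 CPM, back within the day 0 range except for replicate 2, and the test against day 0 gave -0.12 ± 0.26 SE (edgeR adjusted p = 0.770). Exons of Igf2 share 64.5% of their bases with other annotated genes, among them the antisense Igf2os, which has its own row in the table. The strand setting of the counting is not given in the sources used here. Reads of Igf2 and Igf2os thus cannot be told apart with certainty. Reads of the shared bases may also be missing from the count of Igf2, and every ratio that uses Igf2 carries this limit. Per kilobase of exon, the level of Igf1 was 0.816 ± 0.147 times that of Igf2 at day 0 (SD, n = 4), and 13.2 ± 3.88 times at day 14 (SD, n = 4).

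Of the receptors, Igf2r rose and Igf1r did not pass both thresholds. Igf2r was at 126, 129, 79.5 and 112 CPM at day 0 and at 222, 160.1, 183 and 214 CPM at day 14. The day 21 libraries held 153, 193 and 226 CPM. All injured libraries lay above all day 0 libraries. Igf2r was 1.74-fold higher at day 14 (log2 fold change 0.80 ± 0.16 SE, edgeR adjusted p = 0.00137) and 1.71-fold higher at day 21 (0.77 ± 0.17 SE, edgeR adjusted p = 0.00316). With the 4 libraries of high Myh6 left out, the day 14 difference was 0.58 on the log2 scale (edgeR adjusted p = 0.0133), just under the fold required.

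Igf1r, the signalling receptor, was at 131, 150.1, 86.6 and 113 CPM at day 0 and at 92.8, 81.6, 76.6 and 83.7 CPM at day 14. Day 0 replicate 3 was the lowest of its group and overlapped the later libraries. The log2 fold change was -0.52 ± 0.14 SE at day 14 (edgeR adjusted p = 0.0114) and -0.45 ± 0.15 SE at day 21 (edgeR adjusted p = 0.0385). The p passed on both days and the fold did not, so Igf1r was not counted as changed. Without day 0 replicate 3 the values were -0.67 and -0.61 (edgeR adjusted p = 0.00104 and 0.00362), past both thresholds, and without day 14 replicate 1 the day 14 value was -0.60 (edgeR adjusted p = 0.0102). Without the 4 libraries of high Myh6 it was -0.78 on both days. Within the libraries over 3.5% mitochondrial counts the day 14 value was -0.32 (edgeR adjusted p = 0.193), and with replicate number as a block the day 21 value was -0.44 (edgeR adjusted p = 0.0693). Per kilobase, Igf2r stood at 1.68 ± 0.0969 times the level of Igf1r at day 0 (SD, n = 4) and at 4.19 ± 0.461 times at day 14 (SD, n = 4). The range at day 0, 1.56 to 1.78, lay below that of each later day.

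**Figure D1:**
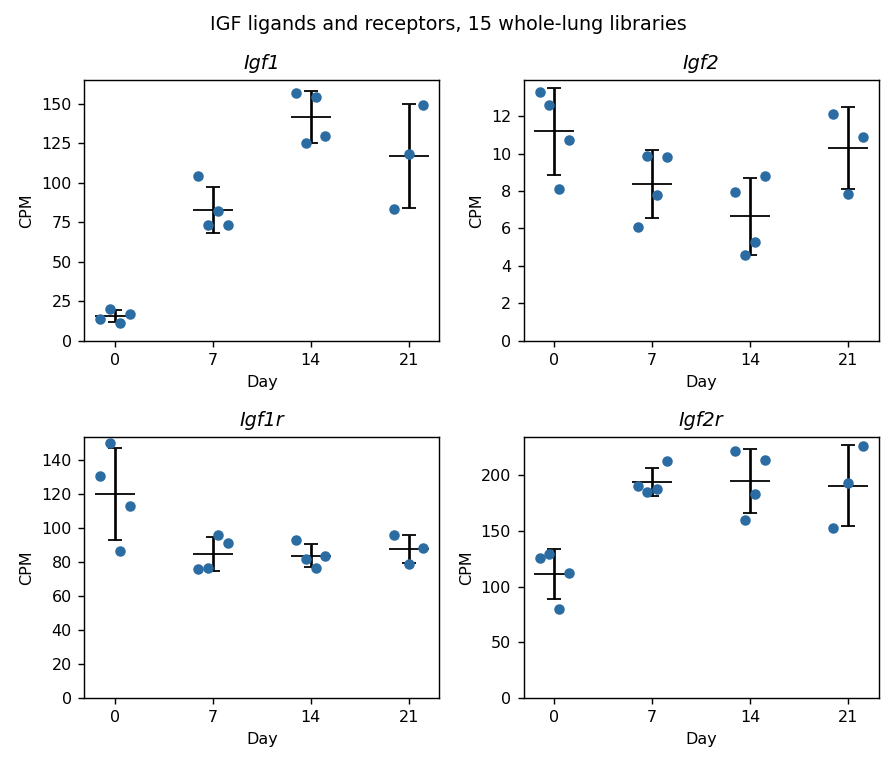
CPM (linear axes from 0) of the ligands and receptors by day; points are libraries (4, 4, 4 and 3), the dash and bars are mean ± SD. Igf1 rises from 11.4 to 20.1 CPM at day 0 to 125 to 157 CPM at day 14, Igf2r is above its day 0 range on each later day, and Igf2 and Igf1r overlap theirs.

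Among the binding proteins, Igfbp6 fell furthest at days 14 and 21. IGFBP6 binds IGF2 in preference to IGF1. Its transcript was at 407, 346, 393 and 300.3 CPM at day 0, at 151, 151, 179 and 130.0 CPM at day 7, and at 58.1, 102, 95.8 and 90.3 CPM at day 14. At day 21 the libraries held 71.2, 90.8 and 53.1 CPM. The ranges of days 0, 7 and 14 did not touch, and days 14 and 21 overlapped. Against day 0, Igfbp6 was 0.239-fold at day 14 (log2 fold change -2.06 ± 0.18 SE, edgeR adjusted p = 3.05e-06) and 0.198-fold at day 21 (-2.33 ± 0.20 SE, edgeR adjusted p = 4.83e-06). Between day 7 and day 14 it fell by 0.82 on the log2 scale (± 0.18 SE, edgeR adjusted p = 0.0192), a step that lost its call without day 7 replicate 3 (edgeR adjusted p = 0.0556). Within the 2 day 0 and 3 day 14 libraries with over 3.5% mitochondrial counts, the day 14 difference against day 0 was -1.87 (edgeR adjusted p = 4.13e-04).

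Igfbp4 and Igfbp7 rose. IGFBP4 holds IGFs away from their receptor until PAPP-A cuts it. Igfbp4 was at 256, 229.8, 215 and 248 CPM at day 0 and at 607, 464, 401 and 386 CPM at day 14. At day 21 it reached 647, 652 and 703 CPM, each above every day 14 library. It was 1.96-fold higher at day 14 (log2 fold change 0.97 ± 0.14 SE, edgeR adjusted p = 9.93e-05) and 2.81-fold higher at day 21 (1.49 ± 0.15 SE, edgeR adjusted p = 7.85e-06). The step from day 14 to day 21 did not pass (0.52 ± 0.15 SE, edgeR adjusted p = 0.294), although it passed without day 14 replicate 1 (0.67, edgeR adjusted p = 0.0277).

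IGFBP7 is a secreted relative that binds IGFs weakly and is abundant in vessel walls. Its transcript was at 309.6, 285, 317 and 240.4 CPM at day 0 and at 632, 667, 433 and 395 CPM at day 14. The day 21 libraries held 505, 537 and 635 CPM. Replicates 1 and 2 of day 14 stood apart from replicates 3 and 4, and all 4 were above day 0. The rise was 1.85-fold at day 14 (log2 fold change 0.88 ± 0.16 SE, edgeR adjusted p = 9.00e-04) and 1.94-fold at day 21 (0.96 ± 0.18 SE, edgeR adjusted p = 9.19e-04). Within the libraries over 3.5% mitochondrial counts the day 14 value was 0.83 (edgeR adjusted p = 0.0645). Exons of Igfbp7 share 7.03% of their bases with Polr2b on the other strand.

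Igfbp2 and Igfbp5 had wide spreads. Igfbp2, which carries IGFs and can bind integrins, was at 299.8, 151, 170.0 and 112 CPM at day 0. It was at 318, 593, 751 and 432 CPM at day 14, where every library lay above day 0, and at 206, 655 and 519 CPM at day 21, where replicate 1 did not. Igfbp2 rose 2.86-fold at day 14 (log2 fold change 1.52 ± 0.41 SE, edgeR adjusted p = 0.0113) and 2.51-fold at day 21 (1.33 ± 0.44 SE, edgeR adjusted p = 0.0312). The day 21 call was lost without day 0 replicate 2, 3 or 4 or day 21 replicate 2 or 3 (edgeR adjusted p from 0.0704 to 0.154). It was also lost with replicate number as a block (1.25, edgeR adjusted p = 0.0661). Without the 4 libraries of high Myh6 the values were 1.19 at day 14 (edgeR adjusted p = 0.0874) and 1.35 at day 21 (edgeR adjusted p = 0.104).

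Igfbp5, a matrix-bound binding protein and a PAPP-A target, was at 490.1, 520.1, 352 and 463 CPM at day 0 and at 688, 1087 and 542 CPM at day 21. Replicate 2 was far above the others. At day 14 the value was 0.33 ± 0.24 SE (edgeR adjusted p = 0.305), with libraries from 429 to 688 CPM. At day 21 Igfbp5 rose 1.69-fold (0.76 ± 0.26 SE, edgeR adjusted p = 0.0357). This call was lost without any 1 of day 0 replicates 1 to 4 or day 21 replicates 1 and 2, and was smallest without day 21 replicate 2 (0.39, edgeR adjusted p = 0.289). It was also lost without the libraries of high Myh6 (0.66, edgeR adjusted p = 0.152).

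Igfbp3, the main IGF carrier of blood, is the gene by which the family was chosen. Its transcript was at 97.0, 139, 58.2 and 67.7 CPM at day 0 and at 17.4, 13.8, 17.7 and 22.9 CPM at day 7. This fall, 0.199-fold, is what selected it. At day 14, replicates 1 and 2 held 51.3 and 52.5 CPM while replicates 3 and 4 held 14.99 and 10.9 CPM, all below the lowest day 0 library. At day 21 the libraries were spread over 103, 60.3 and 22.4 CPM, of which replicates 1 and 2 were within the day 0 range. The log2 fold change against day 0 was -2.33 ± 0.49 SE at day 7, -1.48 ± 0.48 SE at day 14 and -0.55 ± 0.52 SE at day 21, given without p because they rest on the day 0 libraries that chose the gene. Without day 21 replicate 1 the day 21 value was -1.16. Without the libraries of high Myh6 the values were -2.89 at day 7, -1.89 at day 14 and -1.54 at day 21. From day 14 to day 21, which the choice did not use, the change was 0.94 ± 0.52 SE (edgeR adjusted p = 0.576).

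**Figure D2:**
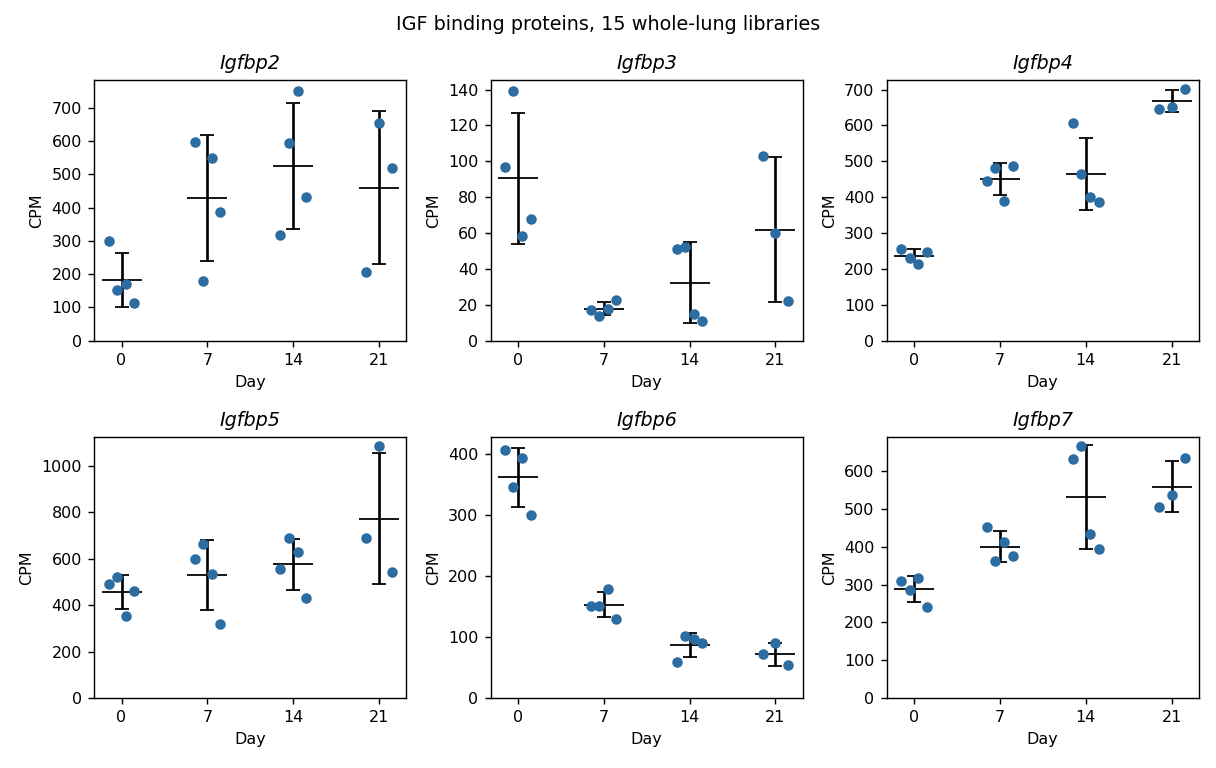
CPM (linear axes from 0) of the 6 binding proteins by day; points are libraries (4, 4, 4 and 3), the dash and bars are mean ± SD. Igfbp6 steps down from day 0 to days 7 and 14, Igfbp4 and Igfbp7 lie above day 0 on each later day, and Igfbp3 is low at day 7 and scattered from 22.4 to 103 CPM at day 21.

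At day 7, the comparison from which the family was chosen, 4 members (Igf1, Igf2r, Igfbp2 and Igfbp4) were past the thresholds upward and 2 (Igfbp3 and Igfbp6) downward, where 8.78% of all genes were higher and 7.36% lower. Since this comparison chose the family, nothing is read from these counts. Igfbp2 was past them only in part of the alternatives, and not without day 0 replicate 2, 3 or 4 or day 7 replicate 1, 3 or 4. Neither Igfbp2 nor Igf2r was past them with mitochondrial share as a covariate or without the libraries of high Myh6. The log2 fold changes were 2.41 for Igf1, 0.80 for Igf2r, 1.23 for Igfbp2, 0.92 for Igfbp4 and -1.24 for Igfbp6. The other members were at -0.41 (Igf2), -0.50 (Igf1r), 0.21 (Igfbp5) and 0.48 (Igfbp7). The value of Igf1r was -0.65 without day 0 replicate 3, -0.69 with the mitochondrial covariate, -0.74 within the libraries under 2.5% mitochondrial counts and -0.80 without the libraries of high Myh6, each past both thresholds. Between day 7 and day 14, 1 member rose (Igf1) and 1 fell (Igfbp6), with 2.77% of all genes higher and 3.23% lower. The count of 2 went down to 0 without day 7 replicate 3 and to 1 without day 7 replicate 2 or 4 or day 14 replicate 3. Between day 14 and day 21 no member was called by edgeR or by DESeq2. In that comparison edgeR called 0.00% of all genes higher and 0.00% lower, DESeq2 called 101 genes, and 1714 genes had an unadjusted edgeR p under 0.05, 2 of them members (Igf2 and Igfbp4). Without day 14 replicate 1, edgeR called 127 genes, of which Igfbp4 was the only member.

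**Figure D3:**
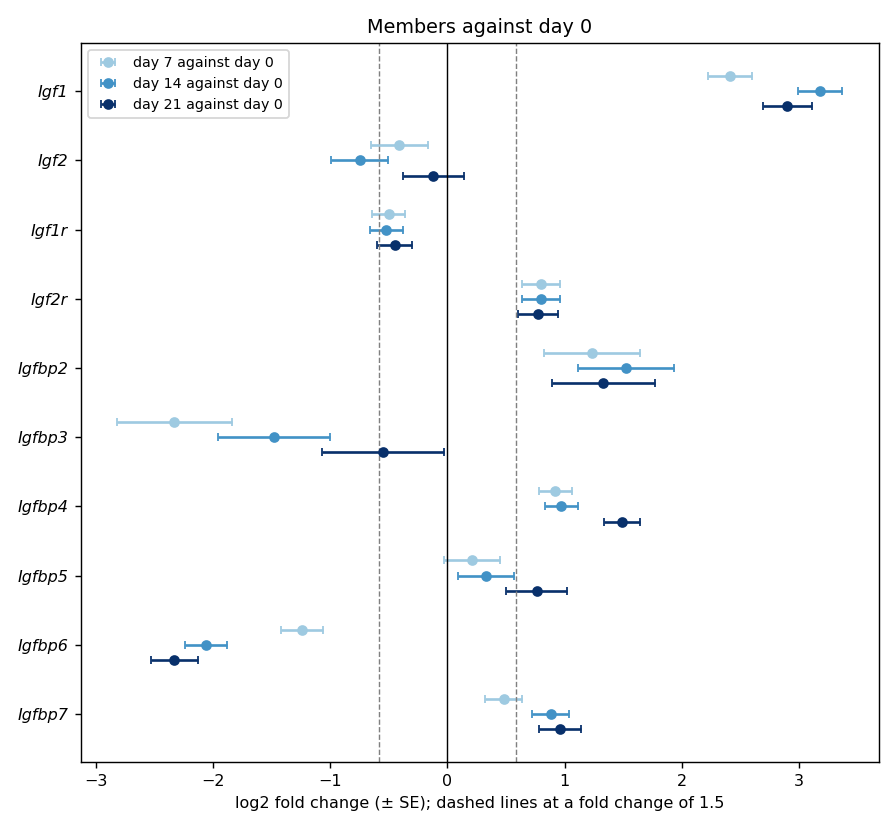
Log2 fold change against day 0 (horizontal axis, bars ± SE) of the 10 members at days 7, 14 and 21; dashed lines mark a fold change of 1.5. Igf1 stands at 2.41, 3.18 and 2.90, Igfbp6 at -1.24, -2.06 and -2.33, and Igfbp3 at -2.33, -1.48 and -0.55.

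The relative amounts of the binding-protein transcripts were compared per kilobase of exon. At day 0 the order was Igfbp6 (325 ± 43.6 CPM per kb), Igfbp7 (238 ± 28.6), Igfbp2 (99.2 ± 44.1), Igfbp5 (76.0 ± 12.2), Igfbp4 (53.7 ± 4.17) and Igfbp3 (28.9 ± 11.6; SD, n = 4 throughout). The ranges of Igfbp2 and Igfbp5 overlapped, and the other neighbours in that order did not. The receptors followed (Igf2r 12.0 ± 2.45 and Igf1r 7.16 ± 1.61 CPM per kb), with overlapping ranges, and the ligands were lowest. At day 14 Igfbp7 (439.8 ± 114 CPM per kb) and Igfbp2 (283 ± 102) led with overlapping ranges, followed by Igfbp4 (105 ± 22.8), Igfbp5 (95.8 ± 18.6) and Igfbp6 (77.7 ± 17.5), whose ranges overlapped, so that no order among these 3 is read.

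Of the summed binding-protein level per kilobase, Igfbp6 made up 39.6% ± 1.92 at day 0, 15.5% ± 2.13 at day 7, 7.79% ± 2.00 at day 14 (SD, n = 4 each) and 6.05% ± 1.54 at day 21 (SD, n = 3). The ranges of days 0, 7 and 14 did not overlap. The share of Igfbp2 was 11.7% ± 3.61 at day 0 and 28.0% ± 8.76 at day 14, and that of Igfbp7 was 29.1% ± 1.89 and 43.3% ± 7.87. The sum itself moved little against its spread, from 821 ± 111 CPM per kb at day 0 to 1012 ± 164 at day 14 and 1075 ± 173 at day 21, with overlapping ranges. The summed ligand level went from 3.53 ± 0.699 to 15.5 ± 1.73 CPM per kb at day 14. The binding-protein sum was thus 190.4 to 325 times the ligand sum in the day 0 libraries and 54.9 to 89.2 times in those of day 14. These are transcript ratios in whole lung and describe neither protein amounts nor IGF made elsewhere in the body. They combine genes that chose the family and are given with no test.

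**Figure D4:**
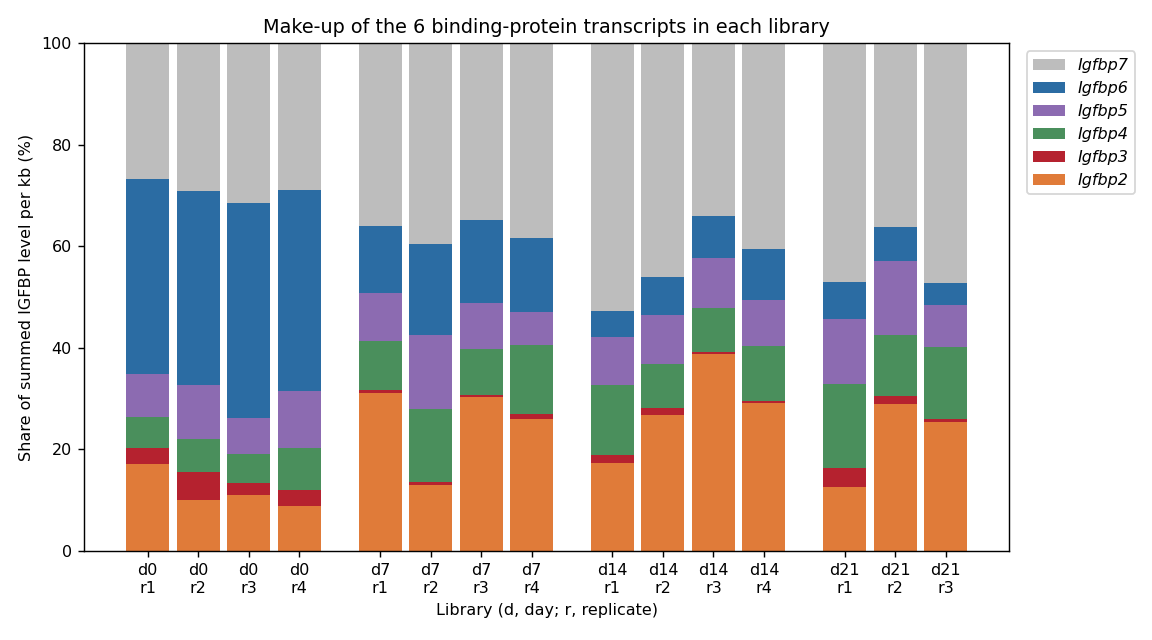
Share (%) of each binding protein in the summed level per kilobase of the 6, one bar per library, grouped by day. Igfbp6 takes 38.3% to 42.4% of each day 0 bar and 5.26% to 10.1% of each day 14 bar, while Igfbp7 takes 26.8% to 31.4% at day 0 and at least 34.1% of each later bar. The Igfbp2 part overlaps its day 0 range of 8.87% to 17.0% at days 7 and 21.

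Cell type markers moved over the same libraries. Of 6 fibroblast markers 4 rose at day 14 and at day 21. Their sum, mostly the collagens Col1a1, Col1a2 and Col3a1, was 1311 to 1989 CPM at day 0. It was 3588 to 13132 CPM at day 14 and 4821 to 9451 CPM at day 21. Day 0 replicate 4, whose title and treatment label disagree, held 1762 CPM, below every later library. Pdgfra was at 305 to 398 CPM at day 0 and 195 to 436 CPM at day 14. Dcn was at 126 to 228 CPM at day 0 and 99.2 to 155 CPM at day 14. Of 6 macrophage markers 5 rose at day 14 and 3 at day 21, while their sum, mostly Lyz2, was 6868 to 8056 CPM at day 0 and 5346 to 9354 CPM at day 14. Of 6 endothelial markers 3 fell at day 14 and 1 at day 21 (sums of 2536 to 3016 CPM at day 0 and 1375 to 2281 CPM at day 14). Of 4 mesothelial markers 1 rose on each of these days, and their sum was 168 to 302 CPM at day 0, 383 to 909 CPM at day 14 and 399.8 to 658 CPM at day 21. Of 6 smooth muscle and pericyte markers 2 rose at day 14 and 3 at day 21. Of 5 alveolar type 2 markers 3 fell at day 14 and 5 at day 21, and of 3 airway markers 3 fell at day 14 and 1 at day 21. Of 4 alveolar type 1 markers none was called at day 14 and 2 fell at day 21. Of 4 adipose markers 3 passed the filter, of which 3 fell at day 14 and 2 at day 21, and the sum was 0.906 to 34.4 CPM at day 0, 0.229 to 0.423 CPM at day 14 and 0.228 to 1.92 CPM at day 21. The sum of 5 heart muscle markers was 18.2 to 224 CPM at day 0, 24.1 to 558 CPM at day 7, 18.7 to 36.1 CPM at day 14 and 11.8 to 665 CPM at day 21. Tagln of smooth muscle was at 0.194 to 1.82 CPM in every library, and 3 cartilage markers were each under 1 CPM. Their part in the values of the members was not tested.

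Members were also set against those marker sums among libraries of the same day, after the mean of each day was removed from log2 CPM. Pearson's r reached 0.7 in size for 6 of 110 pairs of a member and a marker sum. It was 0.78 for Igfbp4 with the fibroblast sum, which is mostly collagen transcripts, and -0.70 with the alveolar type 2 sum. Igfbp6 had r = -0.79 with the fibroblast sum and -0.73 with the smooth muscle and pericyte sum. Igfbp5 had r = 0.87 with the mesothelial sum, and Igfbp2 had r = 0.77 with the alveolar type 1 sum. Day 14 replicate 1 held 13132 CPM of the fibroblast markers, where the other libraries of that day held 3588 to 4969 CPM. Without it, the values were 0.41 and -0.27 for Igfbp4, -0.59 and -0.51 for Igfbp6, 0.89 for Igfbp5 and 0.74 for Igfbp2, so that those of Igfbp4 and Igfbp6 rested in part on that library. These are descriptions over 15 or 14 libraries that share library scaling, and no p is given.

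The genes whose log2 CPM was most like that of a member over the 15 libraries were looked up among 12249 genes with a mean of at least 5 CPM, for the 6 members changed at both days 14 and 21. For Igf1 they were Psrc1 (r = 0.973), Lif (0.973) and Lrp12 (0.971). For Igfbp4 they were Adamts12 (0.968), Adamts2 (0.961) and Fn1 (0.958), which encode matrix proteases and fibronectin. For Igfbp6 they were Aox3 (0.977), Ppp2r5a (0.973) and Ctdsp1 (0.971). For Igf2r they were Ttf2 (0.975), Plxnb2 (0.971) and Mrc2 (0.961), and for Igfbp7 Akirin1 (0.961), Rnf152 (0.948) and Asah1 (0.948). The values of Igfbp2 were lower, with Scx (0.899), Hs2st1 (0.891) and Fbln5 (0.89) at the top. The 15 points share days, so any pair of genes that changed with injury correlates.

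A list of 41 other genes of the pathway was read in the same fit, and 39 passed the filter. At day 14, 5 rose (Pappa, Stc2, Grb10, Lrp1 and H19) and 8 fell (Insrr, Irs1, Irs2, Grb14, Foxo1, Foxo3, Foxo4 and Stat5b), which is 12.8% and 20.5% of those tested where 12.0% of all genes rose and 11.2% fell. The list's median was -0.11 on the log2 scale. At day 21 the same 5 rose and 4 fell (Irs1, Grb14, Foxo4 and Stat5b), which is 12.8% and 10.3% where 12.4% of all genes rose and 10.1% fell, with a median of -0.01. The other 26 genes tested, among them Akt1, Mtor and Ghr, were not counted as changed at days 7, 14 or 21.

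Of the genes that act on binding proteins or their proteases outside the cell, Pappa and Stc2 rose. At day 14 Pappa2 (1.29, edgeR adjusted p = 0.0756), Stc1 (-0.52, edgeR adjusted p = 0.348), Htra1 (0.20, edgeR adjusted p = 0.497) and Igfals (-0.14, edgeR adjusted p = 0.813) did not pass. Pappa encodes PAPP-A, the protease that cuts IGFBP4. It was at 2.45 to 5.50 CPM at day 0, 7.43 to 55.9 CPM at day 14 and 21.9 to 71.6 CPM at day 21. Its log2 fold change was 2.52 ± 0.61 SE at day 14 (edgeR adjusted p = 0.00630) and 3.33 ± 0.65 SE at day 21 (edgeR adjusted p = 0.00156). Without day 14 replicate 1, which held the 55.9 CPM, the day 14 value was 1.44 (edgeR adjusted p = 0.0330), and without day 21 replicate 1 the day 21 value was 2.49 (edgeR adjusted p = 0.0123). Stc2, which encodes an inhibitor of PAPP-A, was at 3.36 to 4.63 CPM at day 0 and at 7.52 to 12.4 CPM at day 21 (1.37 ± 0.29 SE, edgeR adjusted p = 0.00240). Lrp1, an endocytic receptor that also binds IGFBP3, was at 453 to 539 CPM at day 0 and at 921 to 1154 CPM at day 21 (1.03 ± 0.21 SE, edgeR adjusted p = 0.00215). H19, a noncoding RNA beside Igf2 that is read from the opposite parental allele, was at 0.254 to 0.484 CPM at day 0 and at 0.629 to 1.65 CPM at day 14 (1.73 ± 0.44 SE, edgeR adjusted p = 0.00614). Its level was near the filter on low counts. At day 14, Stc2 lost its call without day 0 replicate 1 or 3 or day 14 replicate 1 (edgeR adjusted p from 0.0523 to 0.0870), and Lrp1 without day 14 replicate 1 (0.35, edgeR adjusted p = 0.0543). Within the libraries over 3.5% mitochondrial counts, the day 14 calls of Stc2 (0.51, edgeR adjusted p = 0.235), Lrp1 (0.37, edgeR adjusted p = 0.158) and H19 (1.57, edgeR adjusted p = 0.122) were lost. At day 21, H19 lost its call without day 21 replicate 3 (1.28, edgeR adjusted p = 0.0850). Without the 4 libraries of high Myh6, a fit of 11 libraries, Pappa, Stc2, Lrp1 and H19 were not called on either day. Their day 14 values were then 2.17, 0.88, 0.64 and 1.66, about as large as with all libraries, and their day 21 values 2.17, 1.28, 0.89 and 1.65.

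Of the adaptors inside the cell, Grb10 rose and Grb14 fell. At day 14 Grb2 (-0.04, edgeR adjusted p = 0.834) and Sos1 (-0.13, edgeR adjusted p = 0.457) did not pass, and Shc1 (0.36, edgeR adjusted p = 0.00720) was under the fold required. Grb10, an adaptor that restrains insulin and IGF receptors, was at 57.6 to 74.3 CPM at day 0 and at 95.0 to 170.0 CPM at day 14 (log2 fold change 0.86 ± 0.15 SE, edgeR adjusted p = 4.69e-04). Grb14, of the same adaptor family, went from 57.7 to 64.6 CPM at day 0 to 22.6 to 41.1 CPM at day 14 (-0.96 ± 0.18 SE, edgeR adjusted p = 7.86e-04). It was 24.6 to 28.9 CPM at day 21 (-1.19 ± 0.19 SE, edgeR adjusted p = 3.93e-04), and also fell between day 7 and day 14 (-0.90 ± 0.18 SE, edgeR adjusted p = 0.0126). Irs1, a docking protein of the receptor, fell at day 14 (-1.05 ± 0.31 SE, edgeR adjusted p = 0.0183) and at day 21 (-0.98 ± 0.34 SE, edgeR adjusted p = 0.0421). The day 14 call was lost within the libraries over 3.5% mitochondrial counts (-0.90, edgeR adjusted p = 0.233). The day 21 call was lost without day 0 replicate 1, 2 or 4 or day 21 replicate 1 or 2 (edgeR adjusted p from 0.0727 to 0.136), with replicate number as a block (-0.92, edgeR adjusted p = 0.0827) and without the libraries of high Myh6 (-1.01, edgeR adjusted p = 0.115). Irs2 fell at day 14 only just past the fold required (-0.59 ± 0.16 SE, edgeR adjusted p = 0.00922), and did not keep it without day 0 replicate 3 or without day 14 replicate 2, 3 or 4, nor without the libraries of high Myh6 (-0.55, edgeR adjusted p = 0.0656).

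The FOXO factors, which the kinase Akt keeps out of the nucleus, were lower at day 14. Foxo4 was at 78.6 to 96.3 CPM at day 0, 38.9 to 49.4 CPM at day 7, 33.9 to 48.1 CPM at day 14 and 44.3 to 52.2 CPM at day 21. The fall was -1.03 ± 0.12 SE at day 14 (edgeR adjusted p = 2.06e-05) and -0.85 ± 0.13 SE at day 21 (edgeR adjusted p = 2.86e-04). Foxo1 (-0.60 ± 0.13 SE, edgeR adjusted p = 0.00236) and Foxo3 (-0.79 ± 0.24 SE, edgeR adjusted p = 0.0201) were called at day 14, and either lost its call with some libraries left out: Foxo1 without day 0 replicate 2 or 4 or day 14 replicate 2, and Foxo3 without day 0 replicate 2 or day 14 replicate 3 or 4. Within the libraries over 3.5% mitochondrial counts, Foxo1 (-0.54, edgeR adjusted p = 0.0686) and Foxo3 (-0.62, edgeR adjusted p = 0.111) were not called at day 14, and with mitochondrial share as a covariate Foxo1 was under the fold required (-0.57). At day 21 Foxo3 was at -0.70 (edgeR adjusted p = 0.0581), and it was called by DESeq2 (-0.72, adjusted p = 0.0345), with no filter (-0.74, edgeR adjusted p = 0.0221), without day 0 replicate 3 or day 21 replicate 2, and without the libraries of high Myh6. Stat5b, which acts downstream of the growth hormone receptor, was lower at day 14 (-0.62 ± 0.11 SE, edgeR adjusted p = 7.50e-04) and day 21 (-0.62 ± 0.12 SE, edgeR adjusted p = 0.00157). Without day 14 replicate 1 or day 21 replicate 1 its fold was under the threshold on that day (-0.57 and -0.54), as was the day 14 value within the libraries over 3.5% mitochondrial counts (-0.52). Insrr, the insulin receptor-related receptor, was at 0 to 1.02 CPM in all libraries. Its day 14 call (edgeR adjusted p = 0.0491) did not hold without day 14 replicate 1, 2 or 3. At day 14 Insrr had a value in 12 of 16 alternatives, and none without the libraries of high Myh6. Its log2 value at day 14 was -2.24, and -2.95 without day 14 replicate 4. The day 14 call was also lost with replicate number as a block (-2.30, edgeR adjusted p = 0.0657), with no filter (-2.26, edgeR adjusted p = 0.0586) and within the libraries over 3.5% mitochondrial counts (-2.23, edgeR adjusted p = 0.0551). The day 21 value was -1.85 (edgeR adjusted p = 0.127), and -3.40 without day 21 replicate 1 (edgeR adjusted p = 0.0439). At day 7, 3 of the 39 genes were past the thresholds, Lrp1 and H19 upward and Foxo4 downward, where 8.78% of all genes were higher and 7.36% lower. Lrp1 was not past them with any 1 of day 0 replicates 1 to 4 or day 7 replicates 1 and 2 left out. H19 was not past them without day 7 replicate 1. Within the libraries under 2.5% mitochondrial counts H19 was not past them either (1.53), while Lrp1 was. Neither was past them with mitochondrial share as a covariate, where Lrp1 was at 0.39 and H19 at 1.26 on the log2 scale, nor without the libraries of high Myh6, where Lrp1 was at 0.60 against 0.64 in all libraries and H19 stood likewise close to its value of 1.59 in all libraries.

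**Figure D5:**
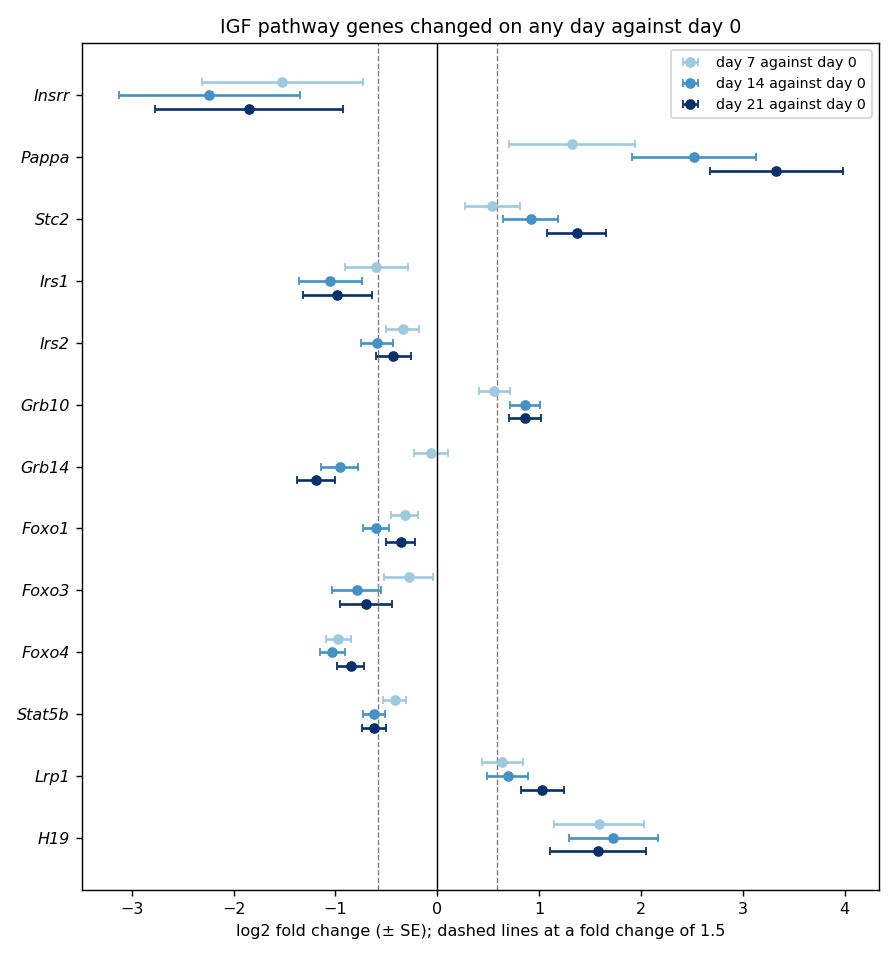
Log2 fold change against day 0 (horizontal axis, bars ± SE) of the 13 pathway genes called on any day, at days 7, 14 and 21; dashed lines mark a fold change of 1.5. Pappa goes from 1.32 to 2.52 and 3.33, Grb14 from -0.06 to -0.96 and -1.19, and Foxo4 stays between -0.85 and -1.03.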

How the data were processed

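The members and gene lists were chosen with earlier results of these data known. Per the study's methods and the labels, the authors trimmed reads with TrimGalore, aligned them with HISAT2 2.1.0 to mm10 (GRCm38), left out multi-mapped reads and deposited raw counts per gene from HTSeq 0.6.0, with no normalization. The annotation release and strand setting are not given in the sources used here. Identifiers were mapped to symbols with GENCODE M21 of the same build (33267 of 33340 matched, and the others held 0.00889% of the counts). Genes were kept by filterByExpr and tested with edgeR 4.0.16 in R 4.3.3 (TMM factors, glmQLFit, glmQLFTest, day as the only term, 15 libraries in 1 fit), with Benjamini-Hochberg adjustment over all 17457 genes. The common biological coefficient of variation was 22.8%. The thresholds, an adjusted p of 0.05 and a fold change of 1.5, are those of the study. CPM levels use TMM library sizes, per kilobase of merged GENCODE exons. Log2 CPM used a prior count of 2 for likeness and an added 0.1 for other correlations. All 10 members were named, with the genes of the 41-gene pathway list changed on any day against day 0, and, for members changed at days 14 and 21, the 3 genes most alike. The tests were also run on simulated counts drawn with the dispersions of this fit, a simpler setting than the data, and nothing is read from that run. Alternatives were DESeq2 1.42.0, RLE factors, total counts, no filter, no fold threshold, replicate number as a block, mitochondrial share as a covariate, libraries under 2.5% or over 3.5% mitochondrial counts, and each library left out in turn. Leaving out libraries with Myh6 over 50 CPM was chosen after seeing the data. Promoter windows are from RefSeq.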

Additional observations from a re-analysis of the deposited data

Results flagged for a closer look

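A library was set against the others of its day for the 10 members, the 13 changed pathway genes and the ratios of levels, in 102 groups of 4. In 6 of them 1 library stood apart by Dixon's criterion at 95%. For independent groups chance gives 1 in 20, but these groups share libraries and genes, so the count is not read against chance. All 6 fell on day 14 replicate 1, day 0 replicate 3 and day 7 replicate 4. Day 14 replicate 1 held 55.9 CPM of Pappa, where the others held 7.43 to 14.0 CPM, and 1272 CPM of Lrp1, where the others held 604 to 679 CPM. Day 0 replicate 3 was low in Irs1 (7.24 CPM, others 15.02 to 15.9 CPM) and in Foxo1 (54.9 CPM, others 74.4 to 77.0 CPM). Day 7 replicate 4 was high in Foxo3 (237 CPM, others 134 to 151 CPM). In the same library Igfbp3 made up 0.907% of the summed binding-protein level, against 0.536% to 0.585% in the others. No CPM level of a member stood apart in any group of 4, and the 3 libraries of day 21 were too few for the criterion.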

How the results depend on the processing

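Against day 0, no member changed direction under any alternative at day 14, and at day 21 only Igf2 did, at -0.28 to 0.01 over the libraries left out. For the 9 members other than Igfbp3, of 144 alternative values at day 14, 133 kept direction and call, 8 lost the call and 3 gained it. At day 21, of 126 values, 109 kept both, 14 lost the call and 2 gained it. Counts of members from here on include Igfbp3, whose calls against day 0 rest on the libraries that chose it and are not read as a result. Within libraries over 3.5% mitochondrial counts, 5 members and 6 pathway genes were changed at day 14, against 8 and 13 in all libraries, with 2 day 0 libraries left in that fit. Without libraries of high Myh6, 8 pathway genes were changed at day 14. At day 7, 3 pathway genes were past the thresholds, against 1 with mitochondrial share as a covariate, 5 with no filter, 8 with no fold threshold and 1 to 5 with a library left out. With a library left out, members changed numbered 6 to 9 at day 14, 5 to 6 at day 21, 0 to 2 from day 7 to day 14, and 0 to 1 from day 14 to day 21, as did pathway genes in the last step. Over all genes, the step from day 7 to day 14 held 1048 calls with edgeR and 1634 with DESeq2. The cause of these differences was not tested.

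Correlations of same-numbered deviations ran from -0.244 to 0.397 and were over 0.1 for every pair in no comparison. They were not set against pairs of differing number, so whether replicate numbers pair the libraries was not tested. With replicate number as a block, 8 members were changed at day 14 and 6 at day 21, the lost call being Igfbp2, and 12 and 8 pathway genes, the lost calls being Insrr and Irs1.

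Some differences between later days changed sign, as did that of Grb14 at day 7 against day 0, and none of them was called. From day 7 to day 14, Igf1r ranged from -0.07 to 0.04 with a library left out, and was 0.22 with the mitochondrial covariate and 0.02 without high Myh6. Igf2r ranged from -0.06 to 0.09, and was -2.73e-03 with no filter and -1.02e-03 with total counts. Igfbp4 ranged from -0.11 to 0.12, and Igfbp5 from -0.06 to 0.25, with -0.05 without high Myh6. From day 14 to day 21, Igf1r ranged from -0.01 to 0.12, with -5.67e-04 without high Myh6. Igf2r ranged from -0.19 to 0.10, with 0.10 without high Myh6 and 0.01 with the block. Igfbp2 ranged from -0.54 to 0.16, with 0.16 without high Myh6, and Igfbp7 from -0.05 to 0.19. Grb14 at day 7 ranged from -0.16 to 0.03, with 0.07 with the mitochondrial covariate.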
